A study of Anolis carolinensis with 2 samples.

Results

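Compact spliced genes of the green anole, Anolis carolinensis, were described in the transcriptomes of 2 whole embryos of this lizard. These are annotated genes whose exons and introns together cover less than 4 kb of the genome. A gene was included when it was the only gene of its locus and had 1 transcript, when its genomic span exceeded its transcript length but stayed below 4000 bases, when its transcript had at least 450 bases, and when it did not lie on a small linkage group (LG) of the assembly. No expression value enters these conditions, though they were set with earlier results of these data known. Of 21085 listed genes, 1691 (8.02%) met it. One embryo had 28 pairs of somites, the paired mesodermal blocks that form along the body axis, and the other had 38. Both were collected within 1 day of laying. Each stage was 1 whole embryo and 1 library, so stage, embryo and library cannot be told apart, no value has a replicate error, and no p-value was computed. The labels give neither sex nor strain.

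Introns are removed from the primary transcript by the spliceosome, and their length varies far more between vertebrate genes than the length of the coding sequence does. In vertebrates, genes with very short introns include many that are transcribed at high levels in most cells, such as those of ribosomal proteins. Annotated gaps that are too short to be spliced also occur, because automatic annotation can bridge a frameshift in the genome sequence with a short artificial intron. Copies of a gene that arose by reverse transcription carry no introns of the parent gene, and a read that matches the copy and the parent can be divided between them.

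The files give no gene names, and none of the 21085 identifiers (0 matches) was found in the available RefSeq gene table, so genes are given by position on the AnoCar2.0 assembly (1-based). No genome of this assembly was used here, and no sequence or exon count is shown. Expression is in FPKM, fragments scaled to transcript length and to all mapped fragments, which compares genes per length. The steps between low FPKM values gave back the fragments behind each of them, with 13859400 mapped fragments at 28 somite pairs and 12908600 at 38, of which 52.1% and 43.4% lay in listed transcripts. Loci with fewer than 10 fragments were mostly listed at 0, which corresponds to an FPKM of 1.44 at 28 somite pairs and 1.55 at 38 for 500 effective bases, of 0.72 and 0.77 for 1000, and of 0.36 and 0.39 for 2000. For the shortest transcripts this floor lay above an FPKM of 1. A listed 0 is therefore a low value and need not be an absence, and detection was compared between genes of like transcript length. Values in parentheses after a ratio of fragments are its exact 95% interval (by Clopper and Pearson). These intervals cover counting error only, and reads copied by PCR are not independent molecules.

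The compact genes had short coding sequences and little intron. Transcript length ran from 450 to 3570 bases with a median of 789, and span ran from 475 to 3995 bases with a median of 2091. Span minus transcript length, the total intron length, had a median of 988 bases and quartiles of 169 and 2217. In 118 genes (6.98%) this total was under 30 bases. Intron here means the annotated gap, and whether gaps this short are spliced was not tested. Length was a multiple of 3 in 93.5% of the transcripts, so it is mostly the coding length. The comparison group held the 10245 genes that met the same conditions with a span of 4000 bases or more and a transcript under 4000 bases, called longer-span genes here. Their median transcript length was 1332 bases and their median total intron length was 15457 bases. They were weighted so that their 7 classes of transcript length held the compact genes' proportions. Compact genes were placed less often on chromosomes 1 to 6 (674 genes, 39.9%) than longer-span genes of like length (49.1%), and more often on small contigs (232 genes, 13.7%, against 5.81%).

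Compact genes were detected less often than longer-span genes of like transcript length at both stages, and those detected had a lower median level as a group. At least 1 FPKM was measured for 566 compact genes (33.5%) at 28 somite pairs and 632 (37.4%) at 38. The length-weighted shares of longer-span genes were 59.6% and 59.1%, a gap of -26.1 percentage points at 28 somite pairs and -21.8 at 38. Any value above 0 was listed for 40.2% and 43.2% of compact genes, against 63.0% and 62.5%, and 882 compact genes (52.2%) were listed at 0 in both libraries. The median log2(FPKM + 1) over all compact genes was 0 at both stages, because most were listed at 0, against 1.76 and 1.69 in longer-span genes. Among detected genes, the median FPKM was 5.18 at 28 somite pairs and 4.22 at 38 in compact genes, against 10.2 and 9.27. High levels were also rarer. An FPKM of 50 or more was reached by 76 compact genes (4.49%) at 28 somite pairs and 67 (3.96%) at 38, against 9.57% and 9.10%.

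Compact genes differed among themselves with total intron length in level and in detection at 1 FPKM. Genes with 2000 bases of intron or more (517 genes) were detected in 43.7% of cases at 28 somite pairs and 44.1% at 38, and their median FPKM when detected was 10.04 and 8.05. Longer-span genes of like transcript length had 58.5% and 58.0%, with medians of 10.8 and 9.94. In this class the level of detected genes was thus near that of longer-span genes, while detection remained lower. At the other end, genes with under 30 bases of intron (118 genes) were detected in 25.4% of cases at 28 somite pairs and 37.3% at 38, with medians of 2.63 and 2.26 FPKM. Longer-span genes of like length had 60.1% and 59.9%, with medians of 9.53 and 8.61. The classes between lay between these values in level, with medians of 2.84 to 5.58 FPKM at 28 somite pairs and 2.51 to 4.71 at 38. Detection at 28 somite pairs was lowest with 100 to under 300 bases of intron, at 23.4%.

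**Figure D1:**
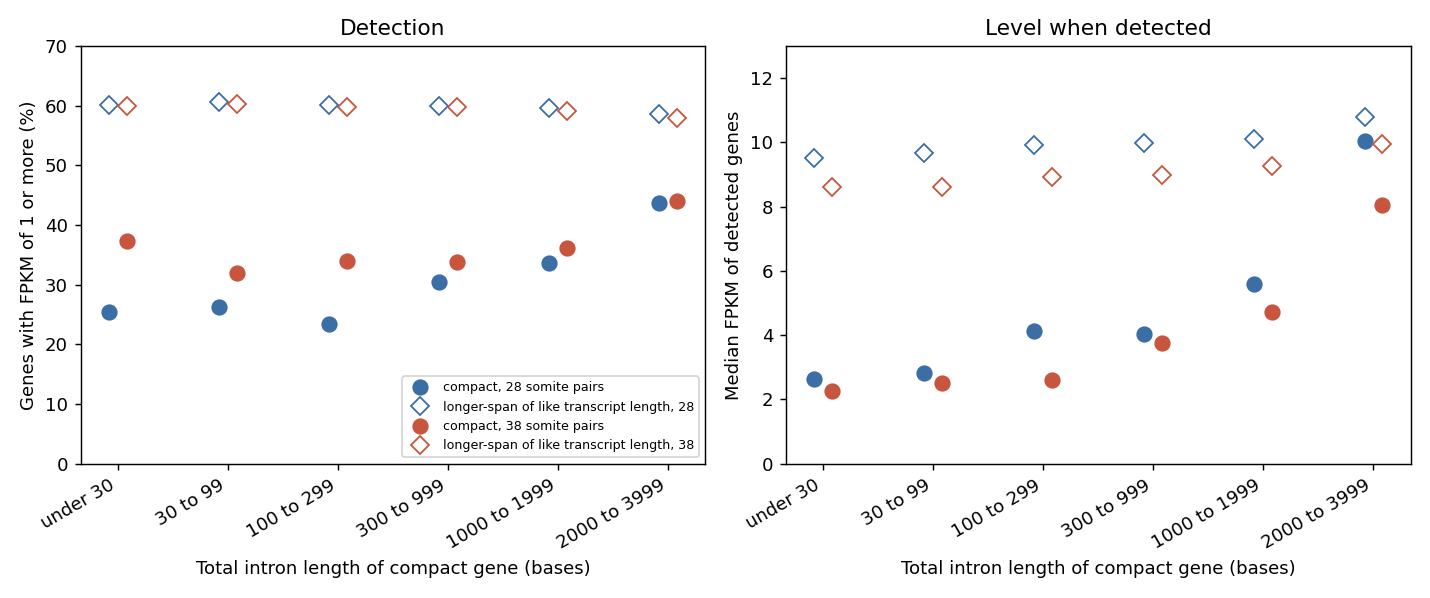
Share of genes with an FPKM of 1 or more (left) and median FPKM of those genes (right), by total intron length of the compact genes in bases. Filled circles are compact genes and open diamonds are longer-span genes weighted to the transcript lengths of each class, with 28 somite pairs in blue and 38 in red. Detection lies below the longer-span genes in each class, and the level approaches theirs with 2000 bases of intron or more (10.04 against 10.8 FPKM at 28 somite pairs).

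The recovered fragment numbers also differed between these classes. For genes listed with fewer than 100 fragments, the number fell within 0.02 of a whole number in most longer-span genes. It did not in 3.56% of them at 28 somite pairs and 3.92% at 38, weighted by length. In compact genes, fractional numbers made up 23.0% of 469 genes at 28 somite pairs and 25.2% of 539 at 38. With under 30 bases of intron the shares were 46.2% of 39 genes and 43.1% of 51, and with 2000 bases or more they were 5.07% of 138 and 6.29% of 143. Such a number can arise when a read with several alignments is divided between loci, which was not tested here, and these genes have uncertain values. Of the 54 compact genes listed with fewer than 10 fragments at 28 somite pairs, 43 had a fractional number, as had 54 of 63 at 38.

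**Figure D2:**
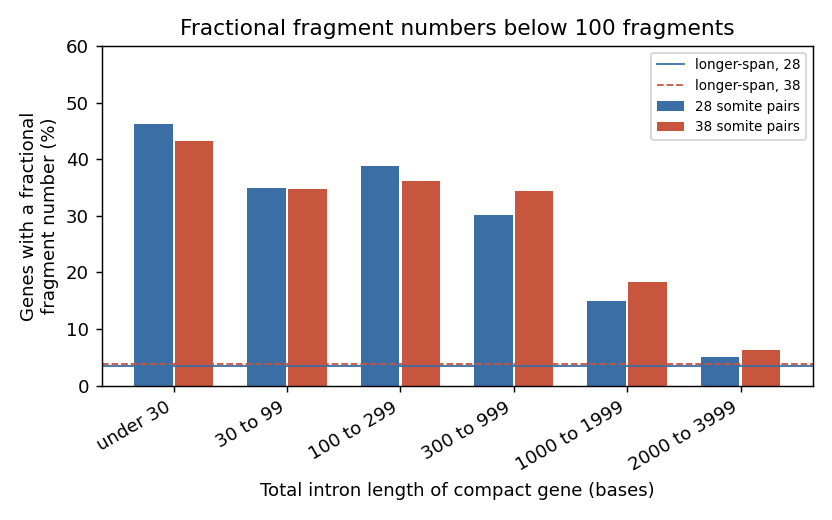
Share of compact genes, listed with fewer than 100 fragments, whose recovered fragment number was not whole, by total intron length in bases and by stage (bars). Horizontal lines are longer-span genes weighted to the compact genes' transcript lengths (3.56% at 28 somite pairs and 3.92% at 38). The share falls from 46.2% and 43.1% with under 30 bases of intron to 5.07% and 6.29% with 2000 bases or more.

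The gap in detection was present in each class of transcript length. Among transcripts of 450 to under 600 bases, 38.1% of 404 compact genes and 56.8% of 769 longer-span genes had an FPKM of 1 or more at 28 somite pairs, and at 38 the shares were 37.6% and 56.4%. Among those of 1500 to under 2000 bases, 22.1% of 113 compact genes and 64.0% of 1714 longer-span genes reached it at 28 somite pairs, and 32.7% and 63.9% did at 38. With 2000 bases or more the shares were 43.9% of 66 compact genes and 66.5% of 2484 longer-span genes at 28 somite pairs, and 47.0% and 65.5% at 38. The gap was thus present in short and long transcripts. The shortest class held much of the high expression, since 39 of the 76 compact genes with an FPKM of 50 or more at 28 somite pairs had transcripts under 600 bases. On chromosomes 1 to 6, compact genes were detected in 43.6% of cases at 28 somite pairs and 51.5% at 38, against 70.4% and 70.1% of longer-span genes of like length. On contigs the shares were 13.8% at both stages, against 30.03% and 27.3%. Across the limit of 4000 bases, 237 genes spanning 3500 to under 4000 bases were detected in 39.7% and 41.4% of cases, and 231 genes spanning 4000 to under 4500 bases in 51.1% and 53.7%. The median FPKM when detected went the other way, at 11.9 and 9.58 below the limit against 9.36 and 6.74 above it. Detection also rose further above the limit, without length weights. At 28 somite pairs it was 50.9% for spans of 4000 to under 8000 bases and 69.1% for 20000 or more.

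A small number of compact genes carried much of the signal. All 1691 genes together had 207727 fragments at 28 somite pairs, or 1.499% of mapped fragments, and 182233 at 38, or 1.41%. Of the fragments in listed transcripts they held 2.88% at 28 and 3.25% at 38, so the direction depended on the total used. The 10 genes with the most fragments held 41.4% of these at 28 somite pairs and 43.6% at 38. Both libraries had an FPKM of at least 50 for 64 genes. Of these, 41 had 2000 bases of intron or more and 55 had at least 1000, and their median transcript length was 596 bases. Of all 1691 compact genes, 517 had 2000 bases of intron or more and 321 had 1000 to under 2000.

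The most abundant compact gene lay on scaffold GL343341.1 (112759 to 116458), with a transcript of 1389 bases and 2311 bases of intron. Its level was 1522 FPKM at 28 somite pairs and 1427 at 38 (28621 and 24724 fragments), a 38 to 28 ratio of 0.93 (0.91 to 0.94). The second, on GL343329.1 (607907 to 610929), had 1313 and 1167 FPKM. The next, on GL343480.1 (175648 to 177902), had a transcript of 450 bases, the shortest allowed, with 1072 FPKM at 28 somite pairs and 1114 at 38. The levels of these 3 genes differed little between the libraries. A chromosome 3 gene (184565801 to 184568685) showed 1203 FPKM at 38 somite pairs against 881 at 28, a ratio of 1.36 (1.32 to 1.41). A chromosome 4 gene (133757991 to 133759797) showed 659 FPKM at 38 against 862 at 28, a ratio of 0.77 (0.74 to 0.79). These had the highest and the lowest ratio among the 10 most abundant genes. When 38 is scaled by 1.15, so that the median difference over all genes is 0, the chromosome 4 gene alone among the 10 has a ratio below 1. The others were on GL343252.1 (30146 to 32365), with 810 and 863 FPKM, on chromosome 2 (17062316 to 17064923), with 594 and 549, and on chromosome 5 (99645724 to 99649686), with 445 and 485. The last were both on chromosome 4. One (42480830 to 42482809) had 344 and 420 FPKM, and the other (143599907 to 143603773) had 357 and 315. In this group 9 of the 10 genes had at least 1461 bases of intron, and the exception was the gene on chromosome 4 with the lowest ratio, which had 835. The median over all compact genes was 988 bases.

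High expression was also seen with almost no annotated intron, though seldom. Totals under 30 bases may be artificial gaps of the annotation, as described above, which was not tested. Of 179 compact genes with an FPKM of 10 or more in both libraries, 24 had under 300 bases of intron. Of the 691 with an FPKM of 1 or more in a library, 186 did. The gene on chromosome 1 (3577039 to 3577779) had 21 bases of intron and 153 FPKM at 28 somite pairs and 139 at 38, a ratio of 0.91 (0.84 to 0.99). The gene on chromosome 4 (129279225 to 129280160) had 16 bases, the least of the 179, with 41.0 and 33.1 FPKM. A gene on GL343282.1 (1075251 to 1076960) had 24 bases, with 30.4 and 20.01 FPKM. All 3 had whole fragment numbers and lower values at 38, though for the first of them this direction turns when 38 is scaled by 1.10. The other genes among the 5 with least intron, both with 24 bases, lay on chromosome 4 (53266647 to 53267498), with 21.4 and 16.5 FPKM, and on GL343463.1 (57815 to 60328), with 14.7 and 14.1. At the other end of this set, a gene on chromosome 2 (94890180 to 94894030) had 3368 bases of intron and a transcript of 483 bases, with 280 and 161 FPKM, a ratio of 0.57 (0.52 to 0.62). A gene on chromosome 1 (254680473 to 254684418) had 3412 bases of intron, with 89.3 and 77.7 FPKM. The other genes among the 5 with most intron were the abundant gene on chromosome 5 given above, one on GL343781.1 (18086 to 22011), with 10.2 and 11.2 FPKM, and one on chromosome 5 (28165015 to 28169001), with 38.03 and 35.8.

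Levels at both stages followed each other in compact genes. Across 691 genes with an FPKM of 1 or more in a library, Pearson's r of log2(FPKM + 1) was 0.905 and Spearman's rho of FPKM was 0.820. These are across genes of the same pair of libraries and describe these libraries only. Over the 178 genes with at least 100 fragments in both, r was 0.968 and rho was 0.962. The spread between the libraries was therefore larger among genes of few fragments.

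**Figure D3:**
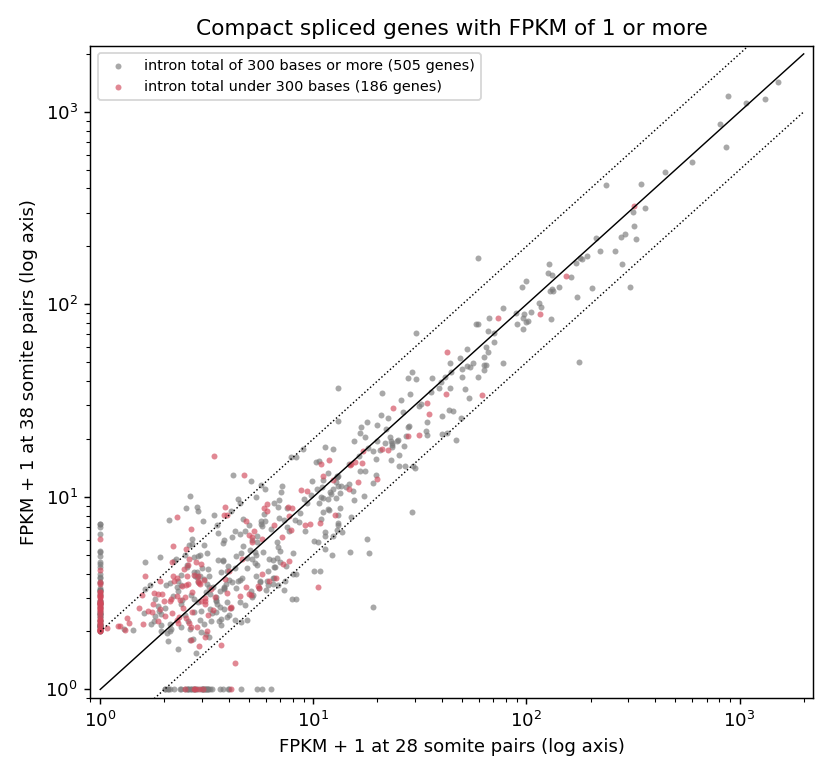
FPKM + 1 of 691 compact genes at 28 (x) and 38 somite pairs (y) on log axes, each point 1 gene, with 186 genes of under 300 bases of intron in red and 505 others in grey. The solid line is equality and the dotted lines are 2-fold. Points on the left and bottom edges are genes listed at 0 in a library, and red points at low FPKM lie mostly above equality.

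The median difference between stages, log2(FPKM + 1) at 38 minus 28 somite pairs, was -0.0066 over the 691 compact genes, with quartiles at -0.47 and 0.64. It was -0.14 in longer-span genes weighted to the same transcript lengths and -0.18 over all 10783 genes with an FPKM of 1 or more in a library. The compact genes thus lay 0.13 above longer-span genes on this scale. At least 2-fold differences towards 38 somite pairs were found in 128 compact genes, or 18.5%, against 8.58% of all genes. Towards 28 somite pairs there were 71, or 10.3%, against 9.2% of all genes. The length-weighted shares of longer-span genes were 9.82% and 12.1%. Many of these compact genes were listed at 0 at the other stage, namely 89 of the 128 and 45 of the 71. Values above 0 at 38 somite pairs only were listed for 130 compact genes, with a median of 14 fragments, and at 28 only for 78, with a median of 12. In longer-span genes the length-weighted shares were 5.69% at 38 only and 6.17% at 28 only, against 7.69% and 4.61% of compact genes.

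The stricter rule counted genes with at least a 2-fold ratio of fragments per mapped fragment and a counting interval apart from 1, with a listed 0 set at 10 fragments. By this rule 97 compact genes (14.0%) were higher at 38 somite pairs, against 7.42% of all genes to which the rule applied, and 52 (7.53%) were higher at 28, against 9.54%. The excess towards 38 was thus also seen when genes listed at 0 were set at 10 fragments. Of the 97 genes, 31 had fractional fragment numbers and 26 were listed at 0 at 28 somite pairs. Of the 52, 10 were fractional and 6 were listed at 0 at 38. Without genes of fractional numbers the rule counted 66 of 561 compact genes towards 38 and 42 towards 28. The share over other genes was not computed with this exclusion, so the excess left under this rule is not known. For genes listed at 0, the interval treats the set 10 fragments as if they were counted. Scaling 38 to an equal sum of FPKM multiplied its values by 1.10, and scaling it to a median difference of 0 over all genes by 1.15. The stricter rule then counted 113 genes towards 38 and 35 towards 28 with the first factor, and 126 and 31 with the second. Those were 16.4% and 5.07% of compact genes, against 9.16% and 6.67% of all genes to which the rule applied, and then 18.2% and 4.49%, against 10.3% and 5.86%. The difference from longer-span genes was 0.13 and 0.12, while the median itself became 0.12 and 0.17.

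The direction depended on the number of fragments. Compact genes with 10 to 29 fragments in the library with more (229 genes) had a median difference of 0.36, with a 95% interval of the median over genes of 0.11 to 0.52, while longer-span genes of like length and fragment number had -0.0086. With 30 to 99 fragments (226 genes) the compact median was 0.13 (-0.08 to 0.26), against -0.12. With 100 to under 300 (115 genes) it was -0.23 (-0.34 to -0.08), against -0.17. With 300 or more (109 genes) it was -0.17 (-0.25 to -0.11), against -0.15. A higher value at 38 than in longer-span genes was therefore seen only below 100 fragments in these classes. With at least 100 fragments in both libraries, the compact median was -0.17 and minus that of longer-span genes (-0.11) was -0.058. The interval of the latter, from the compact median alone, was -0.10 to 0.014 and includes 0. It is over genes, which are not replicates of a stage, and cannot decide whether a stage difference is present. Summed over all compact genes, the ratio of fragments per mapped fragment was 0.942 (0.936 to 0.948), against 0.848 (0.847 to 0.849) in longer-span genes. These sums were not weighted by transcript length, and 10 genes held 41.4% of the compact fragments at 28 somite pairs and 43.6% at 38. Among longer-span genes the median difference was -0.12 with transcripts of 450 to under 600 bases and -0.27 with 2000 bases or more. The share of fragments outside listed transcripts was also higher at 38 somite pairs (56.6% against 47.9%), and its part in the difference was not tested.

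**Figure D4:**
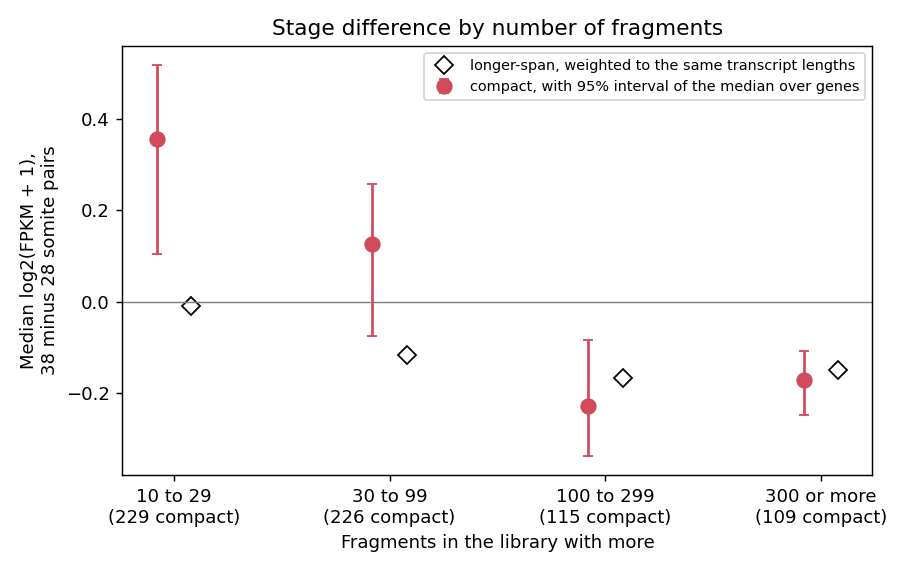
Median log2(FPKM + 1) at 38 minus 28 somite pairs, by the number of fragments in the library with more. Red points are compact genes with a 95% interval of the median over genes, and open diamonds are longer-span genes weighted to the same transcript lengths. Compact genes lie above longer-span genes with 10 to 29 (0.36 against -0.0086) and 30 to 99 fragments, and at or below them with 100 or more.

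The stage difference also went with the amount of intron. Genes with under 30 bases of intron had a median of 0.61 over 45 genes, those with 30 to 99 bases 0.29 over 79, and those with 100 to under 300 bases 0.32 over 62. With 300 to under 1000 bases the median was -0.09 over 126 genes, with 1000 to under 2000 bases -0.07 over 128, and with 2000 bases or more -0.11 over 251. Genes under 300 bases of intron were at least 2-fold higher at 38 somite pairs in 47 of 186 cases (25.3%) and at 28 in 9 (4.84%). Genes with 300 bases or more were higher at 38 in 81 of 505 cases (16.0%) and at 28 in 62 (12.3%). Over all genes the shares were 8.58% and 9.20%, and over longer-span genes of like length 9.82% and 12.1%. Fragment number entered here as well. Below 100 fragments the medians were 0.50 (0.34 to 0.69) over 146 genes with under 300 bases of intron and 0.07 (-0.10 to 0.20) over 321 with more. With 100 fragments or more they were -0.19 (-0.42 to -0.02) over 40 genes and -0.18 (-0.25 to -0.12) over 184. Of the 321 weakly covered genes with more intron, 77 (24.0%) were at least 2-fold higher at 38 somite pairs and 52 (16.2%) at 28. Of the 146 with less, 44 (30.1%) and 9 (6.16%) were. Longer-span genes of like length past 2-fold were 26.0% towards 38 and 28.5% towards 28 with 10 to 29 fragments. With 30 to 99 fragments they were 9.23% and 10.2%. The well-covered compact genes of both intron classes had like medians. Genes with a fractional fragment number had a median of 0.32 (0.15 to 0.50) over 130 genes, and those with whole numbers -0.07 (-0.12 to 0.0012) over 561. Without the fractional genes of both groups, the median minus that of longer-span genes was 0.071, against 0.13 with them. Of compact genes, 106 (18.9%) were then at least 2-fold higher at 38 somite pairs and 63 (11.2%) at 28, against 10.1% and 12.6% of longer-span genes.

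Intronless models of 450 to under 4000 bases were set beside the compact genes. Weighted to the compact genes' lengths, the 996 intronless models were detected in 35.9% of cases at 28 somite pairs and 43.1% at 38, with a median difference of 0.24 over 496 models. Compact genes with under 30 bases of intron were detected in 25.4% and 37.3% of cases, and compact genes with 2000 bases or more in 43.7% and 44.1%. Among intronless models with fewer than 100 fragments, whole numbers were found in 86.9% of 305 at 28 somite pairs and 88.5% of 366 at 38.

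Position went with the difference too. On chromosomes 1 to 6 the compact median was 0.11 over 365 genes, with 70 genes (19.2%) at least 2-fold higher at 38 somite pairs and 22 (6.03%) at 28. Over the genes there that were alone in their locus the shares were 8.42% and 8.13%, and over longer-span genes of like length 9.23% and 11.1%. On scaffolds the compact median was -0.11 over 287 genes, with 50 (17.4%) higher at 38 and 42 (14.6%) at 28, against 9.35% and 10.9% of genes alone in their locus and 10.7% and 12.9% of longer-span genes. Compact genes with under 300 bases of intron had medians of 0.35 (0.21 to 0.59) over 112 genes on chromosomes and 0.27 (-0.04 to 0.49) over 74 on scaffolds and contigs. On chromosomes 25 (22.3%) were higher at 38 and 4 (3.57%) at 28, and on scaffolds and contigs 22 (29.7%) and 5 (6.76%). With 300 bases or more the median was -0.0066 (-0.11 to 0.14) over 253 genes on chromosomes, with 45 (17.8%) higher at 38 and 18 (7.11%) at 28. On scaffolds and contigs it was -0.18 (-0.28 to -0.09) over 252, with 36 (14.3%) and 44 (17.5%). The counts of the latter lay towards 28. Longer-span genes of like length also did, with 10.7% and 12.9% on scaffolds and 9.97% and 19.1% on contigs, so this direction was not particular to these compact genes. Among genes with this much intron on chromosomes and under 100 fragments, the median was 0.25 (-0.0066 to 0.52) over 153, with 41 (26.8%) higher at 38 and 14 (9.15%) at 28. The shares of longer-span genes with so few fragments are given above, over all places.

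Single genes were compared where one library held at least 100 fragments and both held at least 10, which 224 compact genes met. The median ratio of FPKM was 0.87 in these. Towards 38 somite pairs 8 of them (3.57%) differed at least 2-fold and towards 28 somite pairs 14 (6.25%) did. By the same rule the shares were 2.67% and 7.73% of all genes alone in their locus, and 2.64% and 6.88% of longer-span genes of like length, so these counts lay near the background. ENSACAG00000015425 on chromosome 1 (149679050 to 149680015) had the largest ratio towards 38. It had 15 bases of intron, with 15.4 FPKM at 38 against 2.43 at 28, on 168.4 and 28.7 fragments. It was 6.44-fold higher (4.30 to 9.99) with fragments rounded down. Its fragment numbers were fractional, so its value is uncertain. ENSACAG00000003142 on chromosome 6 (8112544 to 8115154) had a transcript of 684 bases and 1927 bases of intron. Its level was 172 FPKM at 38 against 58.0 at 28 (1184 and 431 whole fragments), 2.95-fold higher (2.64 to 3.30). It was the only gene with an FPKM of 50 or more in both libraries that differed at least 2-fold towards 38 on log2(FPKM + 1).

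Of the other genes with the largest ratios towards 38 somite pairs, one lay on chromosome 5 (138654734 to 138657125). It was 2.96-fold higher (2.27 to 3.89), with 12.03 FPKM at 28 and 35.7 at 38. Chromosome 6 held 3 more. The first (56559528 to 56561522) was 2.38-fold higher (2.06 to 2.76), at 69.7 against 29.3 FPKM. Another (22337986 to 22339501), with 76 bases of intron, was 2.51-fold higher (1.81 to 3.53), at 7.03 against 2.81 FPKM. The last (27392389 to 27396119) was 2.10-fold higher (1.53 to 2.89), at 16.7 against 7.95 FPKM. All of these had whole fragment numbers. Genes on GL344928.1 (13043 to 14432) and chromosome 4 (25714900 to 25716638) were 2.77-fold (1.97 to 3.96) and 2.72-fold higher (1.88 to 4.01), both with fractional numbers. The remaining genes of the 10, on chromosome 4 (33820208 to 33821477) and contig AAWZ02038597 (8409 to 11082), were 1.98-fold (1.45 to 2.73) and 1.85-fold higher (1.36 to 2.53).

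In the other direction, ENSACAG00000024720 on chromosome 3 (171704703 to 171706186) was 10.8-fold higher at 28 somite pairs (6.49 to 19.3). Its level was 18.1 FPKM there against 1.67 at 38 (186.3 and 16 fragments). Its number at 28 was fractional. ENSACAG00000003403 on GL343338.1 (269524 to 272525) was 3.78-fold higher at 28 (2.89 to 5.005), at 27.96 against 7.38 FPKM (276 and 68 whole fragments). A chromosome 1 gene (22860717 to 22864405), also with a fractional number at 28, was 3.56-fold higher there (3.05 to 4.18), at 174.6 against 49.3 FPKM. All 3 were chosen for a large ratio, so their intervals away from 1 add no support, and fractional numbers were rounded down in them. A further chromosome 3 gene (41516343 to 41519146) was 3.34-fold higher (2.29 to 4.97), at 16.9 against 5.02 FPKM. One on GL343337.1 (90154 to 93381) was 3.12-fold higher (2.11 to 4.73), at 9.80 against 3.14 FPKM. The most abundant of these 10 genes lay on GL344007.1 (59333 to 62347), and was 2.47-fold higher (2.25 to 2.71), at 304 against 123 FPKM, with a fractional number at 28. The other 4, on chromosome 2 (187183366 to 187185841), GL343275.1 (1530375 to 1532456), GL343395.1 (575209 to 578359) and GL343220.1 (1204416 to 1208193), were 2.18-fold to 2.42-fold higher, with lower interval bounds from 1.70 to 1.999. Of the 10 genes towards 28 somite pairs, 7 had at least 1762 bases of intron and none had under 300, while 3 of the 10 towards 38 had under 300. Among compact genes with 100 fragments or more in the library with more, 40 had under 300 bases and 184 had 300 or more. With 10 genes in each list, these counts lay near that share.

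**Figure D5:**
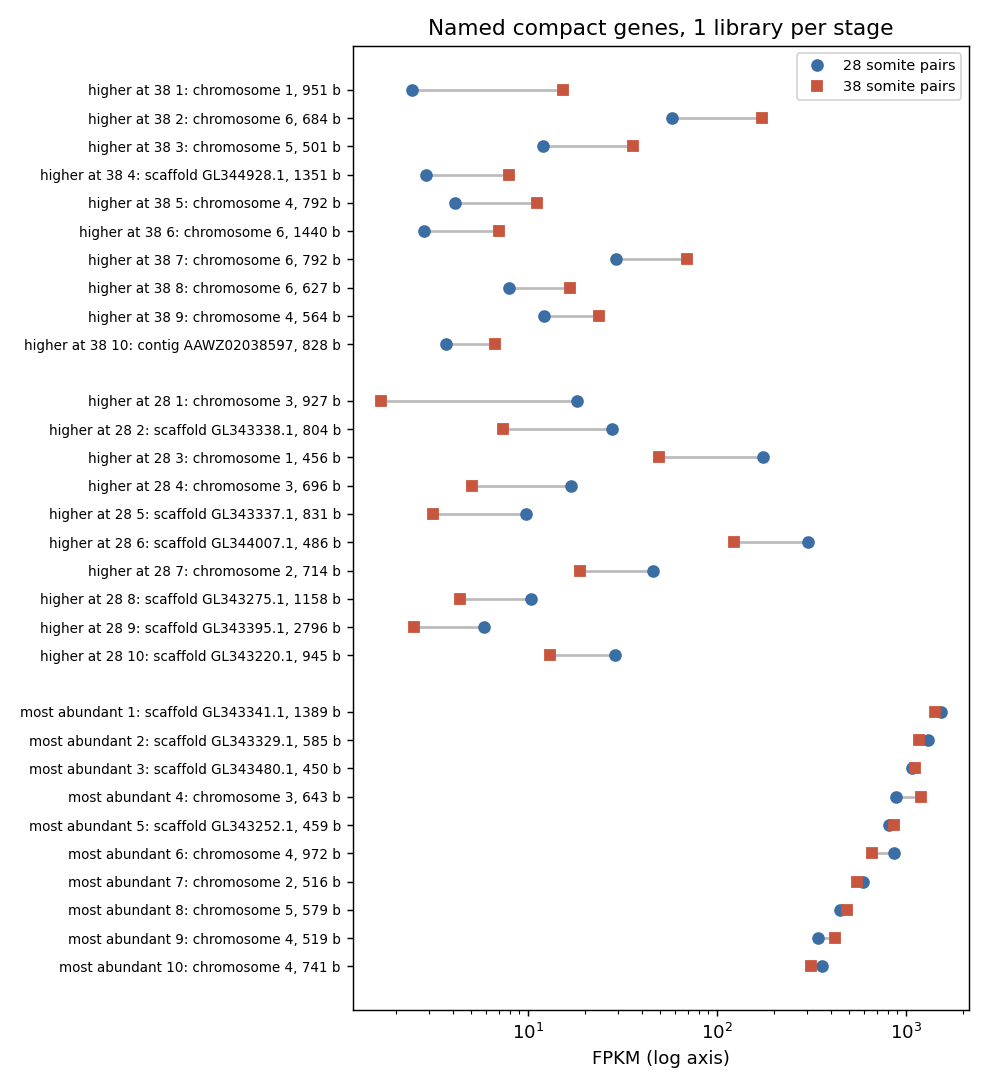
FPKM on a log axis at 28 (blue circles) and 38 somite pairs (red squares), 1 library each, for the 10 compact genes with the largest ratio towards 38, the 10 with the largest ratio towards 28 and the 10 most abundant. Rows give the rank, the place on the assembly and the transcript length in bases (b). The 10 most abundant genes differ by less than 2-fold, and ratios towards 28 reach 10.8.

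Genes with at least 50 fragments at one stage and a listed 0 at the other numbered 5, and each was listed at 38 somite pairs (0.296% of the compact genes). Of all genes alone in their locus, 0.105% met this rule at 38 somite pairs and 0.0994% at 28, and of the 10245 longer-span genes 12 did at 38 and 14 at 28. The largest number lay on chromosome 1 (126966145 to 126969895), with 86 fragments (5.41 FPKM). A gene on GL343369.1 (7 to 2795), at the edge of its scaffold, had 79 fragments (2.80 FPKM), and one on GL343253.1 (1553826 to 1555331) had 62 (5.95 FPKM). Genes on GL343324.1 (273777 to 275633) and GL343318.1 (1387820 to 1389757) had 55 and 53. For a ratio, the listed 0 at 28 somite pairs was set at 10 fragments, the level below which loci were mostly listed at 0. The first was then 9.23-fold higher (4.79 to 19.9) and the last 5.69-fold (2.86 to 12.5). The 10 is a set value and not a count, so these intervals leave out its uncertainty. Fewer fragments at 28 somite pairs would give larger ratios. All 5 had whole fragment numbers.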

How the data were processed

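The data were RNA-seq of 1 whole embryo at each of 28 and 38 somite pairs. The NuGEN Ovation RNA-Seq kit was used on total RNA, per the labels' protocols. TopHat placed reads without trimming on AnoCar2.0, per the series description, and the submitters' processing notes also list Cufflinks, with versions not given in the sources used here. Values deposited by the authors are FPKM per gene and transcript with an interval, per the file headers. Columns with the fraction of a locus and a coverage signal, per the file headers, entered no comparison. All 21085 genes had the status OK in the library at 28 somite pairs.

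Fragments are FPKM times effective length, scaled by the step that made low values whole within 0.02 (a tolerance that grows with the number and is not judged from 10000 fragments). The computation was tested on simulated data. Differences are of log2(FPKM + 1), with a pseudocount of 1 FPKM, and understate the change of low genes. Longer-span genes were weighted in classes starting at 450, 600, 800, 1000, 1250, 1500 and 2000 bases of transcript. Intervals of medians are binomial order-statistic intervals over genes, which are not replicates.

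Named genes were the 10 most abundant, the 10 with the largest ratio each way among genes with 100 fragments in one library and 10 in both, those listed at 0 in one library with 50 fragments in the other, the 5 with least and the 5 with most intron at 10 FPKM or more in both, and runs of 3 members within 20 kb. Members, lists and rules were chosen with earlier results of these data known. Alternatives covered pseudocount, filters, scaling, span, length, weighting and the fold rule. Scipy 1.17.1, numpy 2.4.6 and pandas 2.3.3 ran under Python 3.11.15, and matplotlib 3.10.9 drew the figures.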

Additional observations from a re-analysis of the deposited data

How the results depend on the processing

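No paired analysis was possible because 1 library stood for each stage, and for the same reason no replicate could be left out. Values are given where they moved beyond their interval or a count moved over 1.5 times; the cause was not tested.

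Median level minus that of longer-span genes, at 28 and 38 somite pairs, was -4.64 and -4.54 with a pseudocount of 0.1 FPKM, -2.53 and -2.45 with 0.5, -0.56 and -0.53 with 5, -1.17 and -0.98 among genes above 0 in both libraries, -1.91 and -1.76 without length weights, and -2.33 and -2.23 against spans of 20000 bases or more. At 28 it was -1.84 with members spanning under 5000 bases. Over all compact genes the median FPKM was 0, so this gap could not lie above 0 and its size depended on the pseudocount. Only among genes above 0 in both libraries could it take either sign, and there it was below 0.

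The detection gap, in percentage points at 28 and 38, was -22.8 and -19.3 for any FPKM above 0, -29.2 and -24.1 with spans under 3000 bases, -22.8 and -19.2 under 5000, -28.5 and -24.3 without weights, and -34.3 and -31.0 against spans of 20000 bases or more. At 28 it was -22.7 for 5 FPKM or more, -30.2 for transcripts of 750 bases or more and -22.1 with 300 bases of intron or more. At 38 it was -18.6 on chromosomes 1 to 6.

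The stage difference moved with filter, member limits and scaling. Its median and its median minus longer-span genes were -0.13 and 0.011 at 5 FPKM or more, 0.11 and 0.25 with spans under 3000 bases, 0.11 and 0.27 for transcripts of 750 bases or more, -0.10 and 0.028 with 300 bases of intron or more, and 0.11 and 0.23 on chromosomes 1 to 6. The second had intervals of -0.056 to 0.073 at 5 FPKM or more and -0.042 to 0.11 with 300 bases of intron or more. Both include 0. With at least 100 fragments in both libraries the values were -0.17 and -0.058. The second thus changed sign, and its interval of -0.10 to 0.014 includes 0. Such intervals are over genes, which are not replicates, and take the longer-span median as fixed. They cannot decide whether a stage difference is present. Without fractional genes they were -0.07 and 0.071. Without a filter the second was 0. Scaling 38 to an equal FPKM sum gave a median of 0.12, and to a median of 0 over genes 0.17.

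Counts past 2-fold towards 38 and 28, of 691 genes, were 11 and 9 with a pseudocount of 5 FPKM and 13 and 7 at 4-fold. They were 11 and 9 of 691 where the deposited intervals did not overlap. Other settings made the set smaller, which can lower a count without lowering its share. At 5 FPKM or more there were 31 and 23 of 336 genes, and above 0 in both 39 and 26 of 601. Transcripts of 750 bases or more gave 84 and 21 of 370. On chromosomes 1 to 6 there were 70 and 22 of 365, or 19.2% and 6.03%, against 18.5% and 10.3% in the main result. With 100 fragments in both there were 2 and 4 of 178, or 1.12% and 2.25%, against 0.96% and 1.66% of longer-span genes. Towards 28 there were 44 of 460 with spans under 3000 bases. Towards 38 there were 81 of 505 (16.0%) with 300 bases of intron or more. With the counting interval the counts were 60 and 20 of 365 on chromosomes 1 to 6 and 2 and 5 of 178 with 100 fragments in both. Towards 38 there were 62 of 505 with 300 bases of intron or more. Towards 28 there were 29 of 460 with spans under 3000 bases and 23 of 370 for transcripts of 750 bases or more. With 38 scaled to a median of 0 there were 31 of 691 towards 28. For most of these settings no share over other genes is given, so the counts describe the compact genes only. The alternatives on intron total, chromosomes 1 to 6, 100 fragments in both and fractional genes were chosen after seeing the data.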

Other observations

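Most compact genes did not neighbour each other. With neighbours defined as members at most 20 kb apart, 1508 of the 1691 compact genes stood alone, 77 pairs were found, and 8 runs held at least 3 members (29 genes). The longest run had 8 members on scaffold GL343417.1 (114303 to 196437), with transcripts of 476 to 1302 bases, and none was listed above 0 in either library. A run of 3 members on contig AAWZ02036658 (721 to 18040) had the most fragments, 526 at 28 somite pairs and 596 at 38. The other 6 runs had at most 42 fragments at a stage. On GL343275.1 (1454822 to 1492053), 3 members had 42 fragments at 28 somite pairs and 17 at 38.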
